A study of Mus musculus with 24 samples.

Results

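The miRNAs miR-23a, miR-23b, miR-27a, miR-27b and miR-24 come from a pair of related gene clusters and were followed here across colon tumours and normal colon mucosa of mice. They were chosen by probe name, without star forms, and make up 5 of the 566 mouse miRNA probes of a NanoString nCounter panel, which counts single probe-bound molecules without amplification. The 24 libraries fell into 4 groups: APC tumour (n = 5), APC normal (n = 6), AOM-DSS tumour (n = 6) and AOM-DSS normal (n = 7). The genotype label reads APC, and the design text names APC;CpC mice, in which a Cre transgene acts on the tumour suppressor gene Apc in colon epithelium. In the AOM-DSS model tumours follow azoxymethane, a carcinogen, and dextran sulphate sodium, which injures the colon lining and causes colitis. The labels give no age, sex, dose or number of animals. The normal tissue is called matched in the design text, but the labels do not tie a tumour to a mouse. P-values therefore measure the spread between these samples.

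A miRNA cluster is transcribed as a long precursor RNA, from which several hairpins are cut. One strand of each hairpin becomes the mature miRNA, which pairs with messenger RNAs mainly through its seed, near its 5′ end, and lowers their output. Members of a cluster can still reach different levels, because each hairpin is processed and each mature strand is degraded on its own. In human cells, miR-23a and miR-23b repress glutaminase, the enzyme that converts glutamine to glutamate. miR-27a and miR-27b repress the adipogenic receptor gene Pparg and the transcription factor gene Foxo1, and miR-24 represses the cell cycle factor E2F2 in human cells. The clusters are known for high expression in endothelium and smooth muscle and for roles in blood vessel growth.

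In the RefSeq annotation of build GRCm38.p6, Mir23a, Mir27a and Mir24-2 lie within 404 bases of chromosome 8, at chr8:84208518-84208921. Mir23b, Mir27b and Mir24-1 lie within 792 bases of chromosome 13, at chr13:63300484-63301275, inside the protein-coding gene Aopep (chr13:62964893-63326096). All 6 hairpins are on the plus strand. Mature sequences were found for 4 of the 5 probes, and miR-23b-3p is named only. They are shown because the miRNAs of one family differ little in sequence, while each was compared on its own between tumours and normal mucosa. Capitals mark the seed, bases 2 to 8 from the 5′ end.
mmu-miR-23a-3p: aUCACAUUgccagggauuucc
mmu-miR-27a-3p: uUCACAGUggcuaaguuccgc
mmu-miR-27b-3p: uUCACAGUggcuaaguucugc
mmu-miR-24-3p: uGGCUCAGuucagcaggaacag
The miR-23a-3p sequence lies at chr8:84208563-84208583, miR-27a-3p at chr8:84208727-84208747 and miR-27b-3p at chr13:63300760-63300780. miR-27a-3p and miR-27b-3p share the whole seed and 20 of 21 bases, with the difference C19U (miR-27a base, position from the 5′ end, miR-27b base). The seeds of miR-23a-3p and miR-27a-3p share 6 of 7 bases and differ by U7G. miR-24-3p has the same sequence at chr8:84208875-84208896 and chr13:63301251-63301272, so its probe counts the products of both clusters together. Whether the probes for miR-27a and miR-27b, or for miR-23a and miR-23b, also count each other's target was not tested.

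Mouse miRNA counts per library ranged up to 329346, with 47235 in AOM-DSS normal 7 and 134680 in APC tumour 1, the 2 shallowest libraries. Levels are given as CPM, each probe's count relative to the library's TMM-scaled total, which sets libraries relative to the bulk of their miRNA probes. All 5 miRNAs exceeded background, the mean plus 2 SD of 33 viral miRNA probes, in all 24 libraries. Of the 566 mouse miRNA probes, 226 exceeded it in at least 5 libraries, and the TMM scaling also used probes at background. The mean viral count was 24.4 to 32.9 in APC tumours and 11.7 to 26.6 in APC normal libraries. The lowest count was 1.81 times background for miR-27b, 6.46 for miR-24, 10.8 for miR-23b, 20.9 for miR-23a and 42.7 for miR-27a. All APC libraries ran on cartridge 1, the AOM-DSS normal libraries and AOM-DSS tumours 1 and 2 on cartridge 2, and the other 4 AOM-DSS tumours on cartridge 3. Although the tissue is labelled mucosa, the muscle and stromal miRNAs miR-143 and miR-145 took between 12.2% and 23.3% of the counts in the normal libraries. In tumours of both models they took between 1.60% and 4.95%. In bulk tissue, fewer cells of a type and less RNA per cell cannot be told apart.

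The first question was how each miRNA differed between tumours and normal mucosa. In both models, with TMM scaling, miR-23a fell, miR-27b rose, and the other 3 did not pass the test. In APC tissue 2 of 5 passed an adjusted p of 0.05 in edgeR's quasi-likelihood test, 1 higher and 1 lower, while 21.8% of all 563 tested miRNAs passed, 9.24% higher and 12.6% lower. In AOM-DSS tissue 2 of 5 passed, again 1 each way, against 17.1% of all, 8.53% higher and 8.53% lower. Shares over all tested miRNAs, here and below, include those at background. When only the 226 above background in at least 5 libraries were fitted, 123 passed in APC and 95 in AOM-DSS tissue. In that fit miR-27a also passed in APC tissue. The median log2 fold change of the 5 was 0.03 in APC tissue, beside 0.04 for all tested miRNAs, and -0.02 in AOM-DSS tissue, beside 0.07.

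mmu-miR-23a, the first hairpin product of the chromosome 8 cluster, measured 5233, 6441, 5260, 5375 and 5469 CPM in APC tumours 1 to 5. APC normal mucosa had a lowest value of 7336, a median of 8461 and a highest of 10802 CPM. Every APC tumour lay below every APC normal library, as was so for 8.7% of all tested miRNAs in this direction. The means were 5556 ± 504 CPM in tumours and 8780 ± 1356 CPM in normal mucosa (SD, n = 5 and 6). The fitted change was -0.66 ± 0.12 on the log2 scale (SE, adjusted p = 3.14e-05, edgeR's quasi-likelihood test), a 1.58-fold fall. In AOM-DSS tumours miR-23a ran between 5740 and 6693 CPM with a median of 6250, against 8288 to 9636 CPM with a median of 8981 in AOM-DSS normal mucosa. These groups also did not overlap, as was so for 5.33% of all miRNAs in this direction. The means were 6237 ± 418 and 8943 ± 406 CPM (SD, n = 6 and 7), a log2 fold change of -0.52 ± 0.11 (SE, adjusted p = 0.000387, edgeR's quasi-likelihood test) or a 1.43-fold fall.

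The fall of miR-23a in APC tumours was relative to the scaling. As a share of all mouse miRNA counts, with no scaling, miR-23a took 0.709% ± 0.111 in APC tumours and 0.696% ± 0.0347 in APC normal mucosa (SD, n = 5 and 6). With libraries scaled to the total of the 100 highest miRNAs, its log2 fold change was 0.071 (adjusted p = 0.599, edgeR's quasi-likelihood test) in APC tissue and -0.25 (adjusted p = 0.0932) in AOM-DSS tissue. Scaled to the 4 mRNA probes of the panel it was -0.63 (adjusted p = 0.0336) in APC and -1.01 (adjusted p = 5.75e-05) in AOM-DSS tissue. With the 100 highest miRNAs the median of all log2 fold changes stood at 0.73 in APC and 0.32 in AOM-DSS tissue, and 94.0% and 81.3% of the miRNAs that passed were higher in tumours, against 42.3% and 50.0% under TMM scaling. In AOM-DSS tissue the unscaled share was 0.696% ± 0.0557 in tumours and 0.838% ± 0.0985 in normal mucosa (SD, n = 6 and 7). With cartridge as a term the AOM-DSS change was -0.45 (adjusted p = 0.0648), and on cartridge 2 alone tumours 1 and 2 had 6416 and 6671 CPM, still below all 7 normal libraries.

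mmu-miR-27b, from the middle hairpin of the chromosome 13 cluster, lay closest to background of the 5 and moved the other way. It measured 746, 954, 922, 882 and 717.5 CPM in APC tumours 1 to 5. APC normal mucosa had a lowest value of 476, a median of 552 and a highest of 771 CPM. The highest normal library, APC normal 1, lay above 2 of the 5 tumours, and the other 5 normal libraries lay below all tumours. The means were 844 ± 106 CPM in tumours and 582 ± 100 CPM in normal mucosa (SD, n = 5 and 6), a log2 fold change of 0.54 ± 0.15 (SE, adjusted p = 0.00735, edgeR's quasi-likelihood test) or 1.46-fold. In AOM-DSS tumours miR-27b ran between 656 and 1106 CPM with a median of 815, against 419 to 569.6 CPM with a median of 463 in AOM-DSS normal mucosa. All tumours lay above all normal libraries, as was so for 3.91% of all miRNAs in this direction. The means were 820 ± 159 and 485 ± 64.6 CPM (SD, n = 6 and 7), a log2 fold change of 0.74 ± 0.14 (SE, adjusted p = 0.000162, edgeR's quasi-likelihood test) or 1.67-fold. The AOM-DSS tumours of cartridge 2 had 691 and 656 CPM and those of cartridge 3 had 813 to 1106 CPM, and with cartridge as a term the log2 fold change was 0.46 (adjusted p = 0.141). Scaled to the 4 mRNA probes, it was 0.64 (adjusted p = 0.0625) in APC and 0.26 (adjusted p = 0.404) in AOM-DSS tissue, and scaled to the total of the 100 highest miRNAs 1.27 (adjusted p = 2.17e-08) and 1.01 (adjusted p = 1.47e-06).

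**Figure D1:**
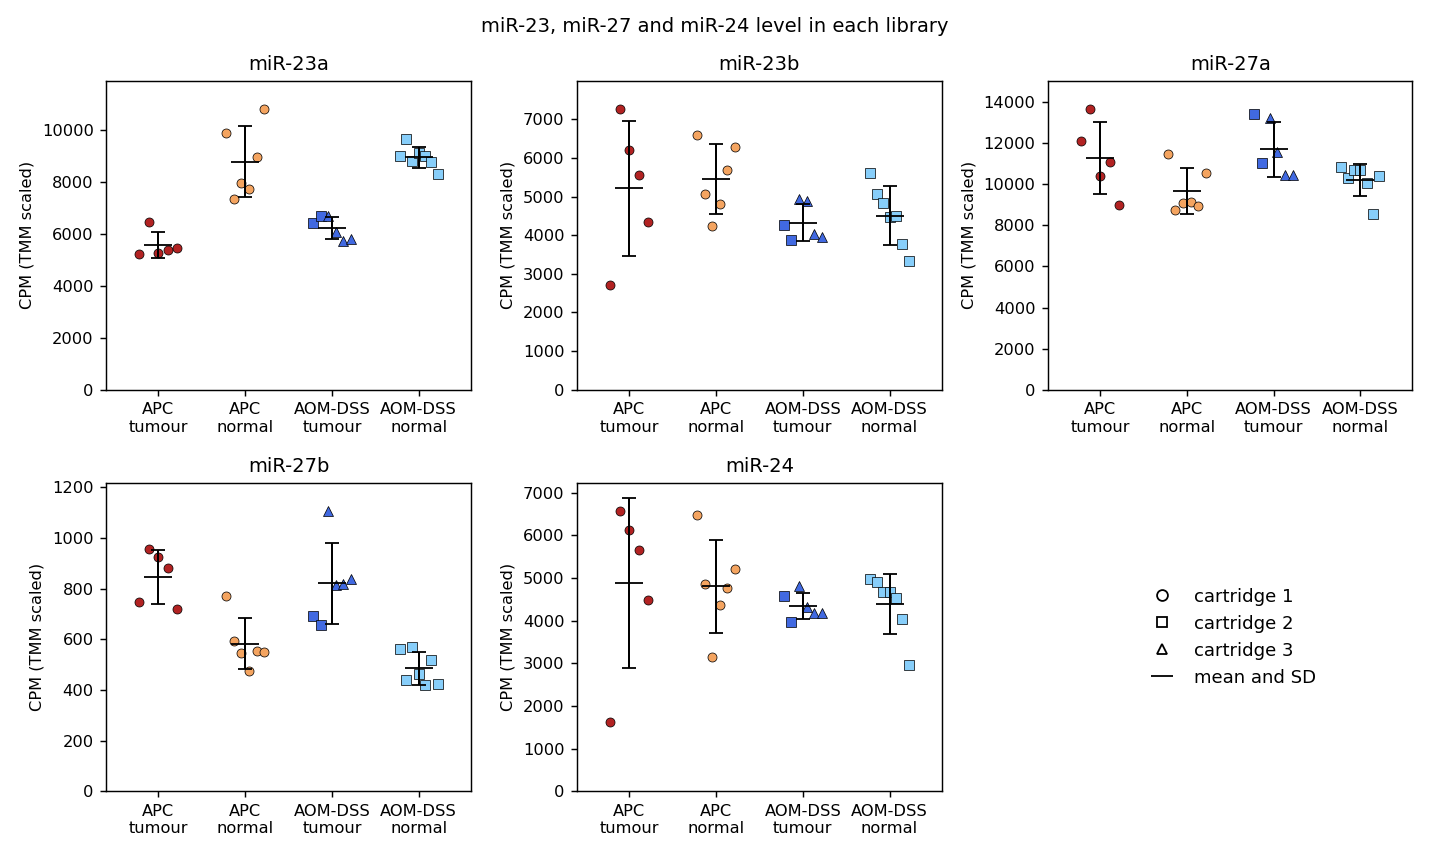
TMM-scaled CPM of miR-23a, miR-23b, miR-27a, miR-27b and miR-24 in each library, with 1 point per library, its shape giving the cartridge, and bars for the mean and SD of each group. miR-23a lies between 5233 and 6693 CPM in tumours and between 7336 and 10802 CPM in normal mucosa of both models, and APC tumour 1 stands low at 1620 CPM for miR-24.

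mmu-miR-27a shares its seed with miR-27b but is encoded beside miR-23a on chromosome 8. It measured 12119, 13658, 10420, 11103 and 8995 CPM in APC tumours 1 to 5, against 8749 to 11493 CPM with a median of 9133 in APC normal mucosa. The groups overlapped, and the log2 fold change was 0.22 ± 0.12 (SE, n = 5 and 6, adjusted p = 0.223, edgeR's quasi-likelihood test). In AOM-DSS tumours it ran between 10437 and 13421 CPM with a median of 11298, against 8565 to 10842 CPM with a median of 10400 in normal mucosa. There the log2 fold change was 0.19 ± 0.11 (SE, n = 6 and 7, adjusted p = 0.293). Both values depended on the processing. In APC tissue 5 alternatives passed the threshold: 0.96 (adjusted p = 3.16e-07) scaled to the total of the 100 highest miRNAs, 0.45 (adjusted p = 0.00437, limma) on the authors' scaled values, 0.41 (adjusted p = 0.00877) after background subtraction, 0.36 (adjusted p = 0.0227) with the geometric mean of the 100 highest, and 0.35 (adjusted p = 0.0114) with probes above background only. In AOM-DSS tissue the log2 fold change was 0.47 (adjusted p = 0.00624) with the total of the 100 highest and -0.30 (adjusted p = 0.249) with the mRNA probes.

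mmu-miR-23b, encoded beside miR-27b on chromosome 13, had 2706, 7263, 6197, 5550 and 4334 CPM in APC tumours 1 to 5. APC normal libraries had 4245 to 6602 CPM with a median of 5378, inside the spread of the tumours. The log2 fold change was -0.06 ± 0.17 (SE, n = 5 and 6, adjusted p = 0.834, edgeR's quasi-likelihood test), but 0.64 (adjusted p = 0.00125) when scaled to the total of the 100 highest miRNAs. In AOM-DSS tissue miR-23b ran between 3875 and 4948 CPM in tumours with a median of 4146, and between 3326 and 5620 CPM in normal mucosa with a median of 4489. The log2 fold change there was -0.06 ± 0.16 (SE, n = 6 and 7, adjusted p = 0.863).

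mmu-miR-24, the product of both clusters, had 1620, 6573, 6134, 5648 and 4473 CPM in APC tumours 1 to 5, against 3155 to 6480 CPM with a median of 4807 in APC normal mucosa. APC tumour 1 was the lowest of all 24 libraries, and the other 4 tumours lay within or just above the normal range. The log2 fold change was 0.03 ± 0.22 (SE, n = 5 and 6, adjusted p = 0.942, edgeR's quasi-likelihood test), and without APC tumour 1 it was 0.25 (adjusted p = 0.278). Scaled to the total of the 100 highest miRNAs it was 0.71 (adjusted p = 0.00302). In AOM-DSS tissue miR-24 ran between 3967 and 4815 CPM in tumours and between 2956 and 4967 CPM in normal mucosa, with medians of 4254 and 4662. Its log2 fold change was -0.02 ± 0.20 (SE, n = 6 and 7, adjusted p = 0.964).

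**Figure D2:**
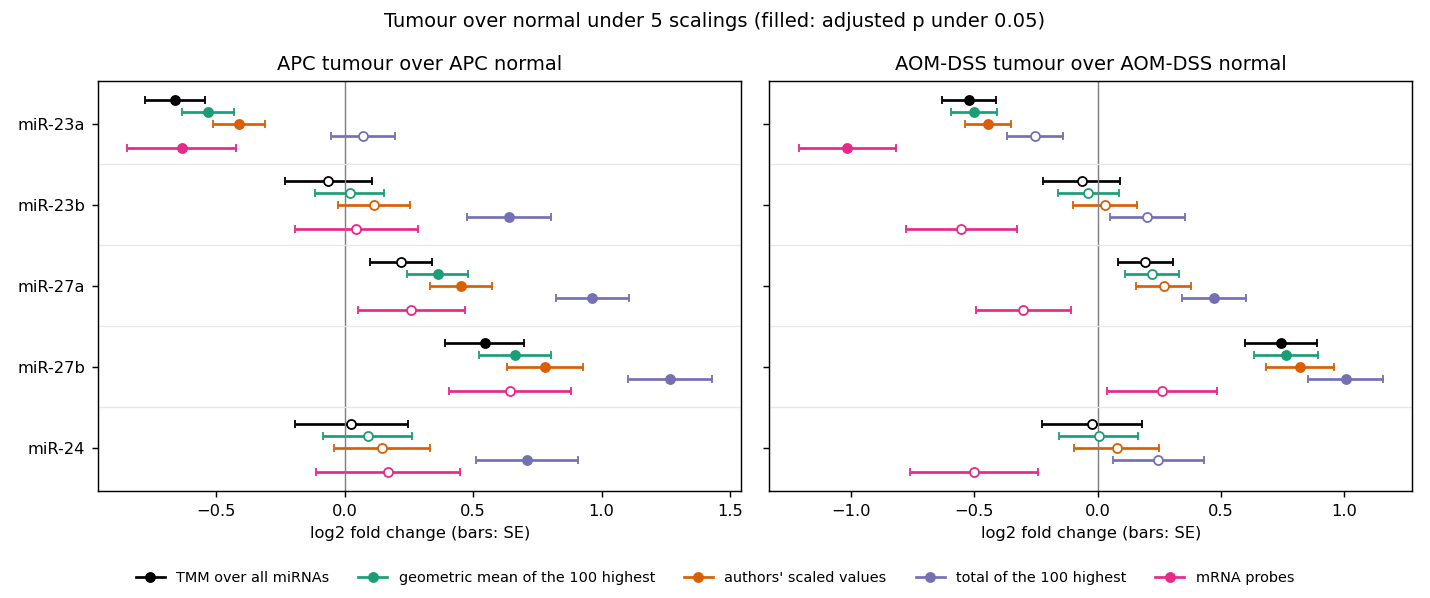
Log2 fold change (x axis, bars SE) of tumour over normal for each miRNA under 5 ways of scaling the libraries, in APC (left) and AOM-DSS tissue (right), with filled points where the adjusted p was under 0.05. miR-27b lies above 0 and miR-23a below 0 in all of them except miR-23a at 0.071 in APC tissue when scaled to the total of the 100 highest miRNAs.

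Ratios of 2 probes within a library do not depend on scaling, so each pair of the 5 was compared between tumours and normal mucosa. A ratio itself mixes abundance with the efficiency of the probes, and only its change between groups is read here. Over 10 pairs in each model, 5 changed in APC and 7 in AOM-DSS tissue, by exact two-sided permutation tests adjusted over the 20 tests. The 10 pairs share 5 probes, so they are not separate results. How often ratios of other probes changed was not counted. The smallest p these designs allow is 0.00433 for APC and 0.00117 for AOM-DSS tissue.

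Within the chromosome 8 cluster, miR-27a rose relative to miR-23a. The ratio of miR-27a to miR-23a lay between 1.64 and 2.32 in APC tumours with a median of 2.07, against 0.977 to 1.19 with a median of 1.15 in APC normal mucosa. In AOM-DSS tissue it lay between 1.66 and 2.09 in tumours and between 0.976 and 1.25 in normal mucosa, with medians of 1.86 and 1.17. All tumours stood above all normal libraries in both models. The differences were 0.86 in APC (1.82-fold, exact permutation p = 0.00433, adjusted p = 0.00962) and 0.71 in AOM-DSS tissue (1.64-fold, exact permutation p = 0.00117, adjusted p = 0.00466) on the log2 scale. The 2 AOM-DSS tumours of cartridge 2 gave the same 0.71 against the 7 normal libraries of that cartridge, a comparison of 2 with 7 in which the smallest possible p is 0.0556.

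Within the chromosome 13 cluster, miR-27b rose relative to miR-23b. The ratio of miR-27b to miR-23b lay between 0.132 and 0.276 in APC tumours with a median of 0.159, against 0.0882 to 0.129 with a median of 0.108 in APC normal mucosa. AOM-DSS tumours lay between 0.163 and 0.224 and AOM-DSS normal libraries between 0.0871 and 0.138, with medians of 0.187 and 0.104. Tumours and normal libraries did not overlap in either model. The log2 differences were 0.67 in APC (1.59-fold, exact permutation, adjusted p = 0.00962) and 0.79 in AOM-DSS tissue (1.73-fold, exact permutation, adjusted p = 0.00466), and 0.61 within cartridge 2. APC tumour 1 had the highest ratio, 0.276, and without it the APC difference was 0.49, still past the threshold.

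Across the clusters, the ratio of miR-27b to miR-23a showed the largest difference among the 10 pairs in both models. It lay between 0.132 and 0.176 in APC tumours, against 0.0513 to 0.0811 in APC normal mucosa. AOM-DSS tumours had 0.0987 to 0.166 and AOM-DSS normal libraries 0.0457 to 0.0649. The log2 differences were 1.19 (2.28-fold, exact permutation, adjusted p = 0.00962) and 1.26 (2.40-fold, exact permutation, adjusted p = 0.00466), with no overlap. The AOM-DSS tumours split by cartridge, with 0.0987 and 0.108 on cartridge 2 and 0.134 to 0.166 on cartridge 3. Within cartridge 2 the log2 difference was 0.93.

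The mean ratio of the miR-27 forms was lower in tumours of both models, but the groups overlapped. The ratio of miR-27a to miR-27b ran between 11.3 and 16.2 in APC tumours, against 14.7 to 19.1 in APC normal mucosa, a log2 difference of -0.33 (exact permutation, adjusted p = 0.0361) with overlapping groups. It missed the threshold without any 1 of APC normal 3 to 6 or APC tumours 2 to 5, with adjusted p up to 0.0794. In AOM-DSS tissue it ran between 11.9 and 19.4 in tumours and between 16.5 and 23.9 in normal mucosa, a log2 difference of -0.55 (exact permutation, adjusted p = 0.0163), again with overlap. The AOM-DSS tumours split by cartridge, with 16.8 and 19.4 on cartridge 2, inside the normal range, and 11.9 to 14.2 on cartridge 3, below it. Within cartridge 2, 2 tumours against 7 normal libraries, the difference was -0.22 (exact permutation, adjusted p = 0.432).

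miR-23b relative to miR-23a rose by 0.47 on the log2 scale in AOM-DSS tumours (exact permutation, adjusted p = 0.00777). In APC tumours the difference was 0.52 (exact permutation, adjusted p = 0.0749), and without APC tumour 1 it was 0.72 (adjusted p = 0.0147). miR-24 relative to miR-23a behaved likewise, with 0.52 in AOM-DSS tissue (exact permutation, adjusted p = 0.00466, no overlap) and 0.56 in APC tissue (adjusted p = 0.184, and 0.90 with adjusted p = 0.0147 without APC tumour 1). miR-27b relative to miR-24 rose by 0.74 in AOM-DSS tumours (exact permutation, adjusted p = 0.00466), 0.50 within cartridge 2, and by 0.64 in APC tumours (adjusted p = 0.0361). Without APC tumour 1 that APC difference was 0.32 (adjusted p = 0.0680), and without any other APC library except APC normal 3 it kept its sign with adjusted p up to 0.0693, above the threshold. miR-24 relative to miR-23b differed by 0.03 in APC and 0.05 in AOM-DSS tissue (exact permutation, adjusted p = 0.874 and 0.470). The ratios of miR-27a to miR-23b and to miR-24 did not pass in either model, with differences of 0.34 and 0.31 in APC tissue and 0.24 and 0.19 in AOM-DSS tissue. Without AOM-DSS normal 7, the shallowest library, the AOM-DSS differences were 0.31 (exact permutation, adjusted p = 0.00787) and 0.29 (adjusted p = 0.00722).

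**Figure D3:**
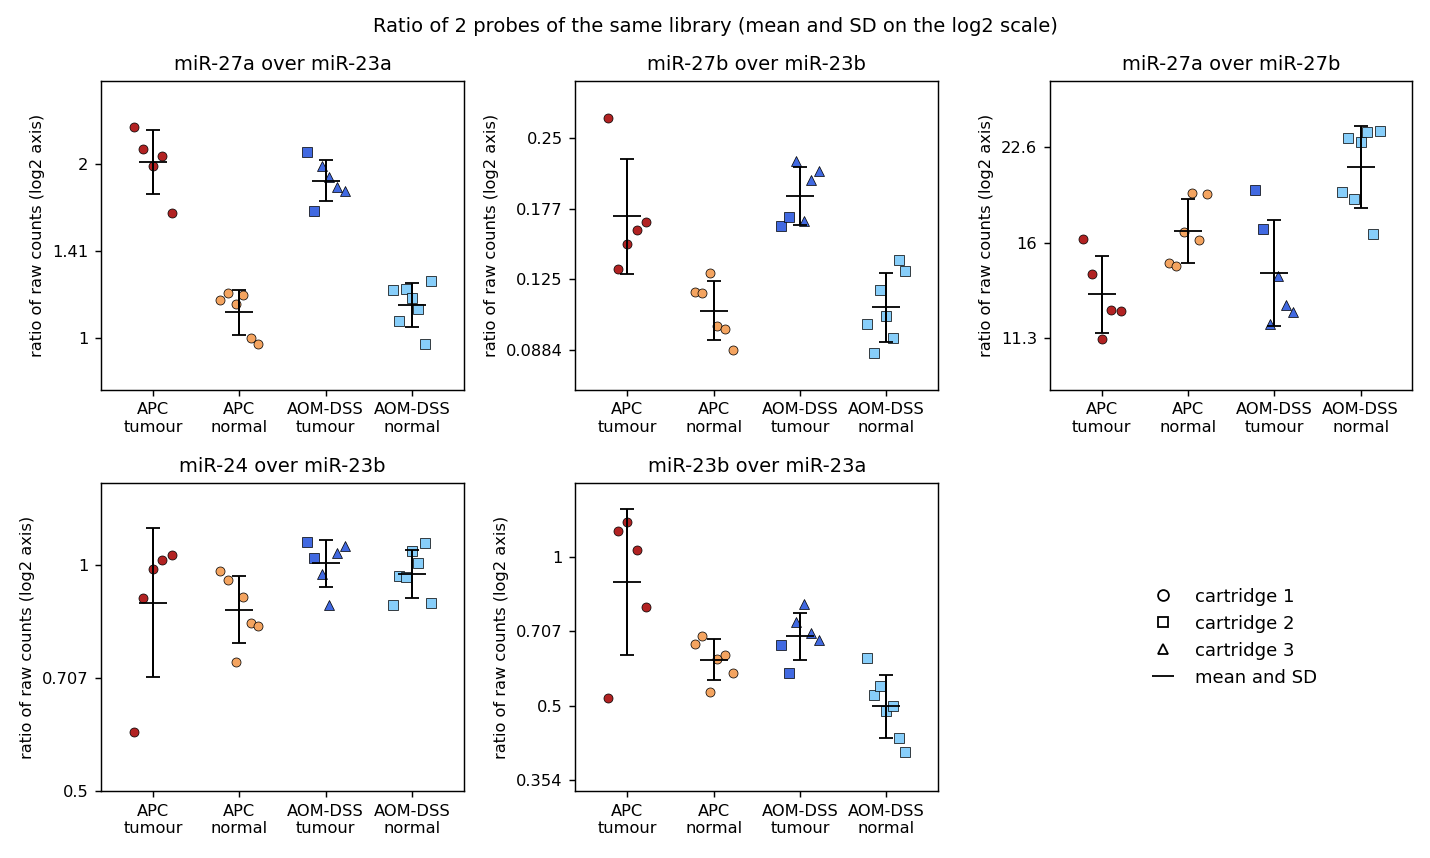
Ratio of raw counts of 2 probes in the same library (log2 y axis) for 5 pairs, with 1 point per library, its shape giving the cartridge, and bars for the mean and SD on the log2 scale. For miR-27a over miR-23a all tumours lie between 1.64 and 2.32 and all normal libraries between 0.976 and 1.25, while miR-24 over miR-23b overlaps in both models.

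The tumour effects of the models were set against each other to see whether they differed. None of the 5 miRNAs passed for the difference AOM-DSS minus APC, while 6.75% of all tested miRNAs did. The difference was 0.14 ± 0.16 for miR-23a (log2, SE, adjusted p = 0.652, edgeR's quasi-likelihood test) and 0.20 ± 0.21 for miR-27b (adjusted p = 0.627). For miR-27a it was -0.03 ± 0.17, for miR-24 -0.05 ± 0.30 and for miR-23b -0.00 ± 0.23. These errors are as large as the differences themselves for all 5 or larger.

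Between the models, none of the 5 passed in normal mucosa, AOM-DSS against APC, where 3.37% of all miRNAs passed and adjusted p ran between 0.411 and 0.943 (edgeR's quasi-likelihood test). None passed in tumours, AOM-DSS against APC, where 8.7% of all passed and adjusted p ran between 0.420 and 0.902. miR-23b averaged 4325 ± 481 CPM in AOM-DSS tumours and 5210 ± 1757 CPM in APC tumours (SD, n = 6 and 5), a log2 fold change of -0.27 ± 0.17 that was -0.43 (adjusted p = 0.0477) without APC tumour 1 and -0.83 (adjusted p = 0.0201) scaled to the mRNA probes. Model and cartridge cannot be told apart in these comparisons, apart from AOM-DSS tumours lying on cartridges 2 and 3.

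Within groups, pairs of the 5 miRNAs varied together to different degrees. After each group mean was taken off the log2 CPM, Pearson's r over the 24 libraries was highest for miR-24 and miR-23b, at 0.93, and 0.87 without the 2 shallowest libraries. miR-27a and miR-23a followed at 0.60, miR-27b and miR-23b at 0.56, and miR-23b and miR-23a at 0.55. Without those 2 libraries these values were 0.66, 0.56 and 0.58. miR-27a and miR-23b, of different clusters, had 0.38, but 0.71 without the 2 shallowest libraries, so the order of the pairs depended on them. The lowest values were 0.24 for miR-27b with miR-23a and 0.16 for miR-27a with miR-24, the last 0.54 without the 2 shallowest libraries. Points share the library, its depth and its scaling, so these values are a description.

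Among 182 probes above background in enough libraries, those most like each member by the same within-group r over 24 libraries were listed. For miR-23a they were miR-126-3p, an endothelial miRNA, at 0.80, miR-199a-3p, found in fibroblasts, at 0.76, and miR-99a at 0.68. With group means left in, r was 0.03, -0.04 and -0.61. For miR-23b they were miR-24 at 0.93, miR-30d at 0.84 and miR-103 at 0.83. For miR-24 they were miR-23b at 0.93, miR-30b at 0.92 and miR-203 at 0.89, of which miR-203 is known from stratified epithelium. For miR-27a they were miR-125a-5p at 0.67, miR-301a at 0.66 and the epithelial miRNA miR-200c at 0.62. For miR-27b they were miR-130b at 0.60, miR-423-3p at 0.58 and miR-23b at 0.56. Without the 2 shallowest libraries, these within-group values changed, given here in the same order. They were 0.87, 0.75 and 0.76 for miR-23a, 0.87, 0.69 and 0.73 for miR-23b, and 0.87, 0.78 and 0.75 for miR-24. For miR-27a they were 0.69, 0.69 and 0.64, and for miR-27b 0.62, 0.56 and 0.56.

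**Figure D4:**
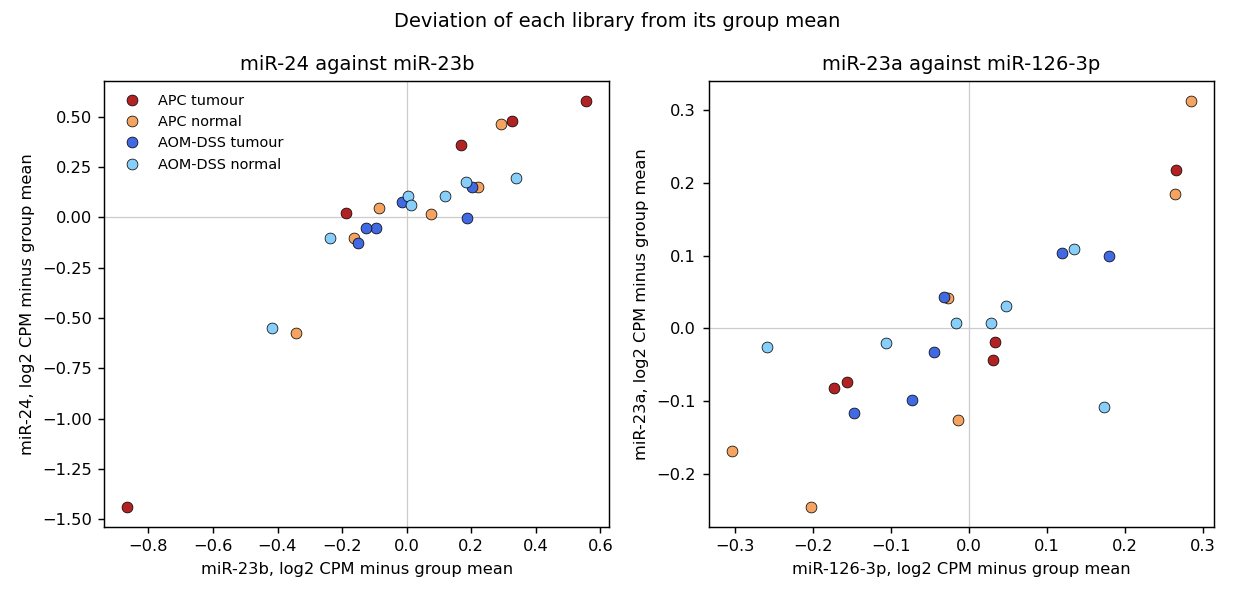
Deviation of each library's log2 CPM from its group mean, miR-24 against miR-23b (left, r = 0.93) and miR-23a against miR-126-3p (right, r = 0.80), with 1 point per library coloured by group. APC tumour 1 lies lowest for both miR-24 and miR-23b, and the left relation has r = 0.90 without it.

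Markers of other cell types were compared in the same way. Among all tested miRNAs, 21.8% passed in APC and 17.1% in AOM-DSS tissue. Of 5 muscle miRNAs, 4 fell in each model, and their summed level was 10379 to 24382 CPM in APC tumours against 172038 to 340301 CPM in APC normal mucosa. In AOM-DSS tissue it was 14987 to 48061 CPM in tumours and 146764 to 184664 CPM in normal mucosa. Of the 2 endothelial miRNAs, 1 rose in APC tumours and 0 passed in AOM-DSS tumours. Their summed level was 13265 to 18392 CPM in APC tumours and 9298 to 13999 CPM in APC normal mucosa, and 13013 to 15955 CPM in AOM-DSS tumours and 13925 to 18186 CPM in AOM-DSS normal mucosa. miR-126-3p, most like miR-23a within groups, rose by 0.43 ± 0.12 in APC tumours (log2, SE, n = 5 and 6, adjusted p = 0.00859, edgeR's quasi-likelihood test), where miR-23a fell. In AOM-DSS tumours, where miR-23a also fell, miR-126-3p changed by -0.20 ± 0.12 (adjusted p = 0.293, same test).

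Of 7 fibroblast and mesenchyme miRNAs, 2 rose and 1 fell in APC tumours, and 1 rose and 3 fell in AOM-DSS tumours. Their summed level was 27660 to 43079 CPM in APC tumours and 22994 to 38010 CPM in APC normal mucosa, and 19170 to 29052 CPM in AOM-DSS tumours and 31029 to 39000 CPM in AOM-DSS normal mucosa. Of 8 leukocyte miRNAs, 1 rose and 1 fell in APC tumours and 1 rose in AOM-DSS tumours. Of 3 erythrocyte miRNAs, 1 fell in APC tumours and 0 passed in AOM-DSS tumours. Of 3 measured intestinal epithelial miRNAs, 3 fell in APC tumours and 1 in AOM-DSS tumours. Of 5 miRNAs of the miR-200 family, general epithelial markers, 1 rose and 2 fell in APC tumours and 2 rose in AOM-DSS tumours. The part of these cell types in the fall of miR-23a or the rise of miR-27b was not tested.

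The miRNAs miR-181c and miR-181d are encoded on the same chromosome as the miR-23a cluster, and the panel counts miR-181d together with miR-181b. miR-181c averaged 337 ± 75.4 CPM in APC tumours and 214 ± 35.5 CPM in APC normal mucosa (SD, n = 5 and 6). It rose there, with a log2 fold change of 0.66 ± 0.20 (SE, adjusted p = 0.0112, edgeR's quasi-likelihood test). In AOM-DSS tissue miR-181c averaged 211 ± 72.1 CPM in tumours and 172 ± 43.4 CPM in normal mucosa (SD, n = 6 and 7), a log2 fold change of 0.22 ± 0.19 (SE, adjusted p = 0.507). The joint probe for miR-181b and miR-181d averaged 353 ± 24.5 CPM in APC tumours and 182 ± 34.2 CPM in APC normal mucosa, a log2 fold change of 0.95 ± 0.17 (SE, adjusted p = 2.40e-05). In AOM-DSS tissue it averaged 289 ± 34.8 CPM in tumours and 185 ± 36.8 CPM in normal mucosa (SD, n = 6 and 7), a log2 fold change of 0.63 ± 0.16 (SE, adjusted p = 0.00282). Background was close to these values: miR-181c exceeded it in 4 of 6 AOM-DSS tumours and 2 of 7 AOM-DSS normal libraries, and the joint probe in 5 of 5 APC tumours, 4 of 6 APC normal libraries, 5 of 6 AOM-DSS tumours and 3 of 7 AOM-DSS normal libraries.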

How the data were processed

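The extraction protocol in the labels names FFPE tissue and the design text frozen tissue, and unlabelled RNA was prepared after NanoString's protocol. Raw counts per probe were deposited by the authors for 603 probes, of which 566 are mouse miRNAs, 33 viral miRNAs and 4 mRNAs. A second deposited table holds a signal: each library's counts times its own factor, after 33 counts of 0 became 1. How the factor was derived, and with which software, is not given in the sources used here. Per the file headers, 6 of the raw columns name 1 sample and 18 only a group, and library numbers of these come from matching the 24 columns of both tables (tolerance 0.01).

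Counts were fitted in R 4.3.3 with edgeR 4.0.16 over all 4 groups (TMM, robust quasi-likelihood). filterByExpr (min.count 10, min.total.count 15) kept 563 miRNAs and removed 3. The Benjamini-Hochberg adjustment ran over these 563, and edgeR gave every adjusted p of a single miRNA unless another tool is named. limma 3.58.1 and DESeq2 1.42.0 served as alternatives. Ratios of 2 probes used counts plus 0.5 and exact two-sided permutation tests (scipy 1.17.1), adjusted over 20 tests. Libraries of a group differed beyond sampling noise (lowest chi-square per degree of freedom 3.30). On simulated counts of the 563 miRNAs for APC tumours against normal mucosa, the fit called 93 of 100 miRNAs changed 2-fold, 50 of 100 changed 1.5-fold and 7 of 363 unchanged ones. Apart from these changes, as many up as down, the simulated libraries had the same mean composition and no cartridge effect. The simulation therefore does not test the scaling.

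Named miRNAs were the 5 members, the 3 probes most like each within groups, neighbours of the clusters and cell type markers. The members, lists and tests were chosen with earlier results of these data known. Alternatives were other scalings, filters and tools, background subtraction, the authors' values, cartridge, a replicate block and leaving out each library.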

Additional observations from a re-analysis of the deposited data

Results flagged for a closer look

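Of 60 groups of values (5 miRNAs and 10 log2 ratios in 4 groups), 14 held 1 library far from the others of its group, where chance gives about 5% of groups. For levels these were APC tumour 2 with 6441 CPM of miR-23a, the highest of its group, AOM-DSS normal 6 with 8565 CPM of miR-27a, and APC tumour 1 with 1620 CPM and AOM-DSS normal 7 with 2956 CPM of miR-24, each the lowest of its group. APC tumour 1, the second shallowest library, also stood apart in 5 log2 ratios, with 2.90 for miR-27a over miR-24, 2.16 for miR-27a over miR-23b, -1.12 for miR-27b over miR-24, -0.74 for miR-24 over miR-23b and -1.69 for miR-24 over miR-23a. AOM-DSS normal 7, the shallowest library, stood apart with 1.81 for miR-27a over miR-24 and -1.48 for miR-24 over miR-23a. APC normal 3 did so with 1.53 for miR-27a over miR-24 and -2.53 for miR-27b over miR-24, and AOM-DSS tumour 2 with -0.75 for miR-24 over miR-23a, the lowest of its group. The groups share libraries and members, so these flags are not independent of each other.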

How the results depend on the processing

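Scaling to the total of the 100 highest miRNAs turned miR-23a in APC tissue to 0.071 and miR-23b in APC tissue to 0.64 (adjusted p = 0.00125). It also brought miR-24 (0.71) and miR-27a (0.96) in APC tissue and miR-27a (0.47) in AOM-DSS tissue past the threshold. In 79 of 690 other values of single members the sign differed with neither value past the threshold. The count of miRNAs past the threshold was 123 for APC tumours against normal mucosa, but 397 with that scaling and 74 scaled to the mRNA probes. It was 96 for AOM-DSS tumours, but 60 with cartridge as a term and 58 on cartridges that hold tumour and normal libraries. It was 38 for the difference between models, but 65 with the 100 highest, 18 with cartridge, 17 on those cartridges and 59 without the 2 shallowest libraries, an alternative chosen after seeing the data. It was 19 between normal groups, but 35 with probes above viral background only, 42 with the 100 highest and 4 with the mRNA probes, and 49 between tumours, but 10 on those cartridges. Among calls past the threshold, 42.3% were higher in APC tumours, but 94.0% with the 100 highest, 67.2% on the authors' values, 54.5% with the background filter and 52.4% with the geometric mean of the 100 highest (added after seeing the data), and 50.0% in AOM-DSS tumours, but 81.3% with the 100 highest and 8.3% with the mRNA probes. Leaving out each library gave 109 to 132 calls for APC, 80 to 101 for AOM-DSS, 28 to 57 for the difference, 8 to 17 between normal groups, 28 to 52 between tumours and 10 to 14 of the 20 ratios. The count moved by over 1.5 times between normal groups without APC normal 2, 3 or 4 or AOM-DSS normal 1, 2, 4 or 5, and between tumours without APC tumour 2, 3 or 4. Of the 20 ratios 12 passed, but 3 did with AOM-DSS tumours of cartridge 2 only, all 3 in APC tissue. There 0 of 10 AOM-DSS ratios passed, and none could, as the smallest exact permutation p was 0.0556. The calls of miR-23a and miR-27b held in both models without any 1 library. Whether numbers shared by tumours and normal libraries pair them is not known from the labels. Same-numbered deviations had r between -0.39 and 0.23, which cannot decide it. AOM-DSS tumours 3 and 6 were most like AOM-DSS normal 3 and 6 (r = 0.22 and 0.23). All other tumours were most like a normal library of another number. With a replicate block miR-27b in APC tissue was 0.47 (adjusted p = 0.0556, edgeR's quasi-likelihood test). In a paired exact test 0 ratios passed, and none could after adjustment over 20 tests. Its smallest p is 0.0625 for 5 APC and 0.0313 for 6 AOM-DSS pairs. Unadjusted, 7 AOM-DSS ratios were under 0.05, each at that smallest p, and 0 APC ratios were. The number of libraries and the 2 shallow ones limit precision, and miR-27b had 16 counts in AOM-DSS normal 7.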
